A study of Mus musculus with 2 samples.

Results

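LY6 proteins and other surface proteins held by a glycosylphosphatidylinositol (GPI) anchor were examined in Taf7-deficient CD4 T cells through a list of 10 genes, Ly6a, Ly6e, Ly6c1, Ly6c2, Ly6d, Lypd6b, Cd55, Cd59a, Thy1 and Cd52. A gene was followed through the transcript cluster, the unit the array reports, that carries its symbol alone, and 7 of the 10 genes had one, among 19938 such genes. Ly6c1 and Ly6c2 were represented by 2 clusters that name both genes. No cluster in the probe table used here matched Ly6a, so Ly6a was not analysed here. The list was drawn up knowing that Cd55 and Lypd6b were lower on the knockout array, so the member values are a description and support nothing.

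Total RNA of FACS-purified spleen CD4+ T cells was measured on 1 array per genotype. Both groups carried 1 floxed and 1 null Taf7 allele on a mix of the C57/BL6 and 129 strains. The Taf7 -/- group also carried the transgene 8EIII-cre, whose recombinase removes the floxed allele, and the Taf7 +/- group did not; the labels do not describe the element that drives the Cre, and they give neither the age of the mice nor the number of animals behind an array. The cells had high surface TCRbeta and CD4 and were enriched for low CD44, a protein abundant on activated and memory cells. Genotype, animal and array cannot be told apart with 1 array each, so no test between genotypes was possible and no value below has an error. In RNA of many cells, fewer cells of a type and less RNA per cell cannot be told apart either.

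A GPI anchor is a glycolipid that is built in the endoplasmic reticulum, joined to the end of a protein and left in the outer leaf of the plasma membrane, so the protein has no segment inside the cell. LY6 proteins share a compact fold with several disulfide-bonded loops. In T cells GPI-anchored proteins gather in cholesterol-rich membrane patches together with Src family kinases, and several of them, Thy1 and Ly6c among them, serve as surface markers of T cells and their subsets.

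The sequences before the start sites are shown for the members with a difference past 1.5-fold that have an entry in the RefSeq promoter table, each beside its closest tandem copy. Array probes read transcripts, so the likeness of these windows does not show whether the copies share probes. The windows are from build GRCm38.p6 and from the minus strand, and capitals mark the longest run of letters that both copies share. The first pair is Cd55 (chr1:130462745-130462994) and Cd55b (chr1:130423044-130423293), each window holding the 250 bases before an annotated start; that of Cd55 lies within the span of the gene, which has a start further upstream.
Cd55: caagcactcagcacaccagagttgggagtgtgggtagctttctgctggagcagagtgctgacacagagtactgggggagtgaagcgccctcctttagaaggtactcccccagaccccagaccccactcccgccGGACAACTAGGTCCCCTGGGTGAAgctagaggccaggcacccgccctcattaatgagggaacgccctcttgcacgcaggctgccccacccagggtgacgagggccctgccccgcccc
Cd55b: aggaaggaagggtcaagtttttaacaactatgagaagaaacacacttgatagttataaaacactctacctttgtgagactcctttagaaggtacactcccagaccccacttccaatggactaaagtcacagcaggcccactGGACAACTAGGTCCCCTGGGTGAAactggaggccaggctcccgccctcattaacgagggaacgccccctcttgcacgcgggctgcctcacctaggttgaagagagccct
The Cd55 window and its copy had a shared run of 24 bases, and 170 of 210 aligned bases were identical (81.0%). The second pair is Ly6c1 (chr15:75048921-75049087) and Ly6c2 (chr15:75112067-75112221), restricted to bases outside the annotated gene.
Ly6c1: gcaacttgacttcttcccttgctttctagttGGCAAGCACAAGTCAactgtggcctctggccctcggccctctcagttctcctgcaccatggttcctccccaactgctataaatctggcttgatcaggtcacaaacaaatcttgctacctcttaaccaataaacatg
Ly6c2: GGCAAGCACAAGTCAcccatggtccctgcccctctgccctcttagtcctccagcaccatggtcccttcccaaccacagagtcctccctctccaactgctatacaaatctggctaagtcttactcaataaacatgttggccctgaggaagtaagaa
In the Ly6c windows 99 of 134 aligned bases were identical (73.9%), with a longest shared run of 15 bases. The table held promoters of 4 of the 10 genes, Cd55, Cd59a, Ly6c1 and Ly6c2, each from 250 bases before to 50 after a start. The motif TATAAA, the core of a TATA box, occurred on either strand in 13.6% of all 32851 promoters of that length. Among the members it occurred in 1 of the Ly6c1 promoters, 143 bases before the start, and in none of the Ly6c2, Cd55 or Cd59a promoters. The core of an interferon-stimulated response element, a pair of TTTC runs set 2 bases apart, occurred on either strand in 3.44% of all promoters and among the members in that of Cd59a. These matches are descriptions of letters and not of binding sites.

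**Figure D1:**
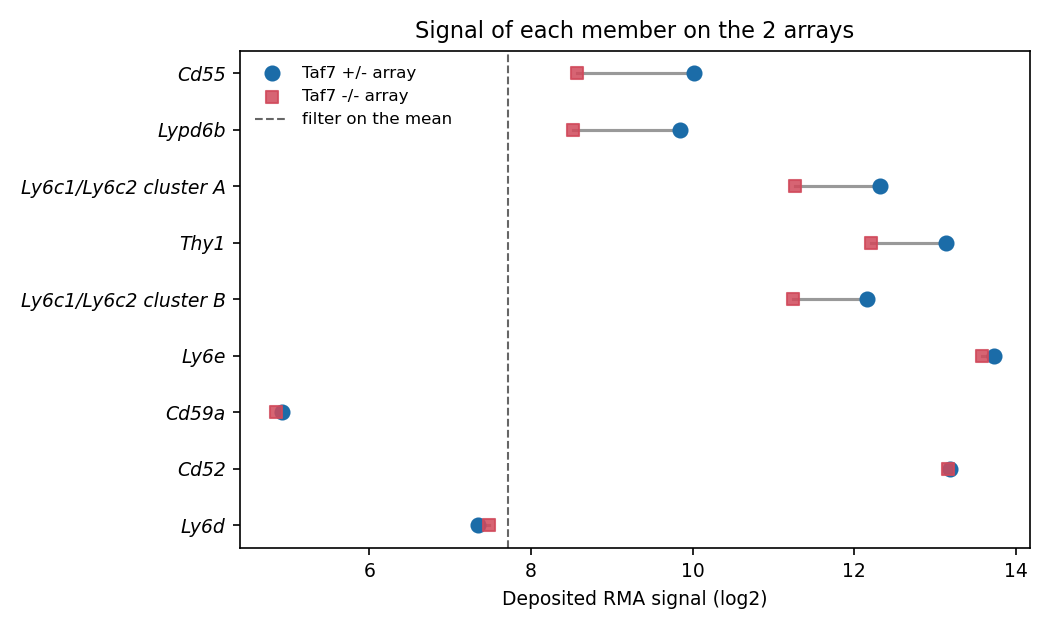
Deposited log2 signal of the 7 members with a cluster of their own and the 2 clusters shared by Ly6c1 and Ly6c2 (A is cluster 10429568, B is cluster 10429573), with circles for the Taf7 +/- array, squares for the Taf7 -/- array and a dashed line at the filter value of 7.71. Cd55, Lypd6b, Thy1 and both shared clusters have differences between -1.45 and -0.92, and those of the other 4 members lie between -0.15 and 0.14; levels of different genes should not be compared, because each rests on its own probes.

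Cd55, Lypd6b and Thy1 were lower on the knockout array, each by more than 1.5-fold, while Ly6e and Cd52 were within 1.5-fold. These 5 members had a mean signal at or above 7.71, the median of all rows of the array, which served as the filter on low values. Ly6d and Cd59a lay below it. Of the 10457 genes that passed the filter, 3.17% were at least 1.5-fold lower and 0.449% at least 1.5-fold higher. At 2-fold the shares were 0.325% lower and 0.0383% higher. The members stood at 3 of 5 lower by 1.5-fold, 2 of 5 lower by 2-fold and 0 of 5 higher, counts from which nothing is read because the list was chosen on this contrast. The median difference of the 5 was -0.93 on the log2 scale, against -0.05 over all genes that passed, and that of all 7 measured members was -0.15, against 0.06 over all 19938 genes. As a check of the labels, Taf7 itself had a log2 signal of 8.34 on the Taf7 +/- array and 7.79 on the Taf7 -/- array, a difference of -0.55. Its probes may lie outside the deleted part, in which case they check nothing, and their position was not analysed here.

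Cd55, the decay-accelerating factor that dismantles complement convertases on the cell's own surface, had the largest difference of the list. Its log2 signal was 10.02 on the Taf7 +/- array and 8.56 on the Taf7 -/- array, a difference of -1.45 (2.74-fold lower). The knockout signal stayed above the filter value. Cd55 was the 6th lowest of the 10457 genes and the 2nd lowest of the 2416 genes whose mean was within 0.5 of its own on the log2 scale. The central 95% of those 2416 differences ran from -0.69 to 0.35. Cd55b, the tandem copy of Cd55 shown above, had a signal of 6.17 on the Taf7 +/- array and 5.64 on the Taf7 -/- array, a difference of -0.54 on a gene below the filter. Whether its probes also read Cd55 transcripts was not tested.

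Lypd6b, a GPI-anchored LY6-domain protein related to modulators of nicotinic acetylcholine receptors, was next in size. Its log2 signal was 9.84 on the Taf7 +/- array and 8.52 on the Taf7 -/- array, a difference of -1.32, or 2.50-fold lower. It was the 10th lowest of all genes that passed and the 4th lowest of 2338 genes of similar mean. Its neighbour in the genome and nearest relative, Lypd6, was below the filter at 6.60 on the Taf7 +/- array and 6.47 on the Taf7 -/- array. Over the 2 arrays, the genes nearest to Cd55 in signal were Fam111a, at a distance of 0.18 on the log2 scale, Lypd6b, also at 0.18, and Asah1, the acid ceramidase, at 0.28. The genes nearest to Lypd6b were Cd55, Asah1 at 0.22 and Fam111a at 0.24. Nearness over 2 arrays says only that the pairs of values were alike.

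Thy1, the small immunoglobulin-domain protein that marks mouse T cells, had a log2 signal of 13.14 on the Taf7 +/- array and 12.21 on the Taf7 -/- array. The difference of -0.93 made it 1.91-fold lower, just short of 2-fold. It ranked 49th lowest of all genes that passed. Among the 392 genes with a mean within 0.5 of its own it was the lowest, and the central 95% of that group ran only from -0.40 to 0.27. Differences were smaller in size among strongly detected genes, and its rank over all genes does not take this into account.

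Ly6c1 and Ly6c2 encode the Ly6C antigens, which are carried by monocytes and by part of the naive and memory T cells. Both clusters that name the 2 genes were lower on the knockout array. Cluster 10429568 had a log2 signal of 12.32 on the Taf7 +/- array and 11.27 on the Taf7 -/- array, a difference of -1.05 or 2.07-fold lower. Cluster 10429573 went from 12.16 on the Taf7 +/- array to 11.24 on the Taf7 -/- array, a difference of -0.92 or 1.89-fold lower. The clusters differed from each other by 0.13 in this respect. They share both gene names and may share probes, so they are not separate measurements, and the contributions of Ly6c1 and Ly6c2 cannot be told apart. Among the 831 clusters with several gene names and a mean at or above 7.71, 3.25% were at least 1.5-fold lower and 0.12% at least 2-fold lower, the latter being cluster 10429568 alone. Among single-symbol genes of similar mean, 1 of 1146 was lower than cluster 10429568 and 1 of 1227 was lower than cluster 10429573.

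**Figure D2:**
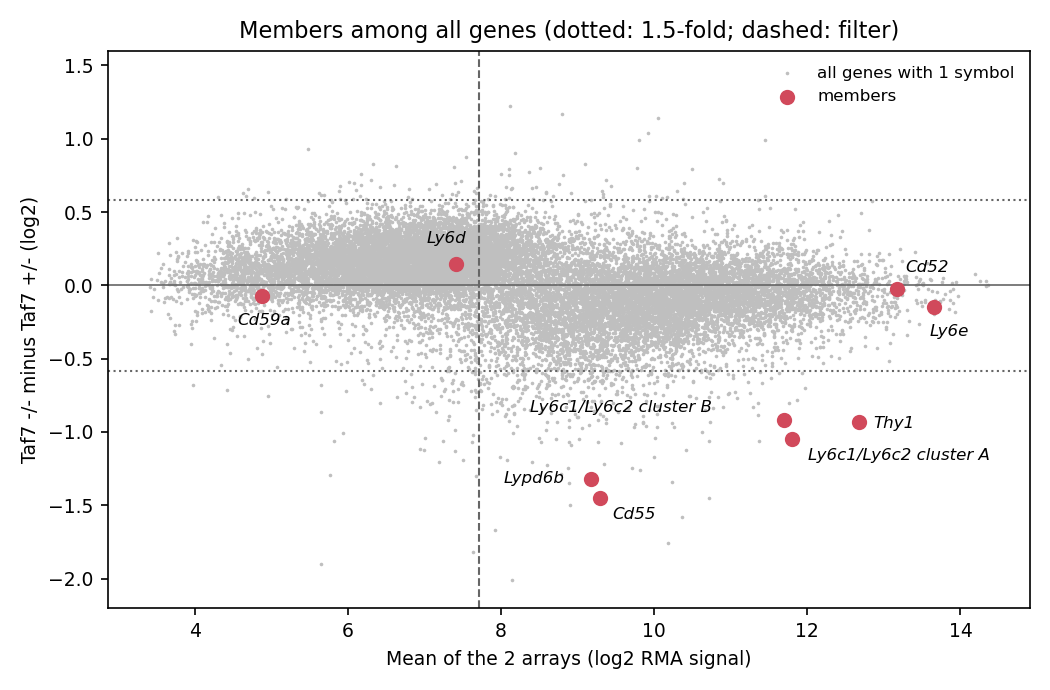
Difference between the arrays (Taf7 -/- minus Taf7 +/-, log2) against the mean of both arrays (log2 signal), with all 19938 genes in grey and the members in red, dotted lines at 1.5-fold and a dashed line at the filter value. Thy1 and the Ly6c clusters, with means from 11.70 to 12.67, lie below nearly all grey points at their signal, as do Cd55 and Lypd6b at theirs, and Ly6e, Cd52, Ly6d and Cd59a lie among them.

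The other LY6 and GPI-anchored members differed little. Ly6e, an interferon-inducible LY6 protein found on most lymphocytes, had a log2 signal of 13.73 on the Taf7 +/- array and 13.58 on the Taf7 -/- array, a difference of -0.15. Cd52, a very short glycoprotein of lymphocytes and the target of alemtuzumab in humans, was at 13.18 on the Taf7 +/- array and 13.15 on the Taf7 -/- array, a difference of -0.02 whose sign turned when the arrays were rescaled. Cd52 had the 102nd lowest of 191 differences among genes with a mean within 0.5 of its own, a group whose lowest was Thy1.

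The 2 members below the filter give no more than a weak signal. Ly6d, a marker of early B lineage cells and keratinocytes, was at 7.34 on the Taf7 +/- array and 7.49 on the Taf7 -/- array. Its difference of 0.14 was close to the median of 0.17 among genes of similar mean. Cd59a, which blocks the last step of the complement membrane attack complex, was at 4.92 on the Taf7 +/- array and 4.85 on the Taf7 -/- array, and its paralog Cd59b at 5.12 and 5.39. Of the pair of complement regulators in the list, only Cd55 was thus detected above the filter.

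Genes that build and attach the anchor were centred near no difference. Of 25 listed genes for synthesis and attachment, 24 were measured and all 24 passed the filter; 12 of them were lower and 12 higher (median -0.01, against -0.05 over all genes that passed). Pigp, a subunit of the enzyme that starts the anchor, was the only one past 1.5-fold. Over all genes that passed, 3.17% were at least 1.5-fold lower and 0.449% at least 1.5-fold higher. Pigp was at 10.47 on the Taf7 +/- array and 9.88 on the Taf7 -/- array (difference -0.60). It was at -0.39 when its 2 clusters were averaged and within 1.5-fold under every rescaling. Piga, the catalytic subunit of the same enzyme, was at 8.54 on the Taf7 +/- array and 8.13 on the Taf7 -/- array, a difference of -0.41. Pigk, the protease of the transamidase that attaches the anchor, was at -0.24. At the other end stood Pigl, the de-N-acetylase of the second step, at 0.33, Pigv, a mannosyltransferase, at 0.16, and Pigh at 0.14. The transamidase subunits Gpaa1, Pigt, Pigs and Pigu had differences of 0.10, 0.06, -0.05 and 0.00.

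Of 11 genes for remodelling, transport and release of anchored proteins, 9 passed the filter, with 7 lower and 2 higher, a median of -0.19 and none past 1.5-fold. All genes that passed had a median of -0.05, and most of them were lower too. The members of the p24 cargo receptor family, which carry anchored proteins out of the endoplasmic reticulum, were at -0.34 (Tmed10), -0.23 (Tmed5), -0.22 (Tmed9) and -0.19 (Tmed2). Pgap1, which removes a fatty acid from the new anchor, was at -0.31. When its 2 clusters were averaged it was at -0.59, which is past 1.5-fold. Pgap2 was at 0.18, Mppe1 at 0.04 and Pgap6 at -0.02, the last with a sign that turned under rescaling, as did that of Pgap3. After centring 5 were lower and 4 higher, and with the loess trend removed or after quantile normalization 6 were lower and 3 higher. The median of this list remained between -0.13 and -0.19 under the rescalings tried.

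**Figure D3:**
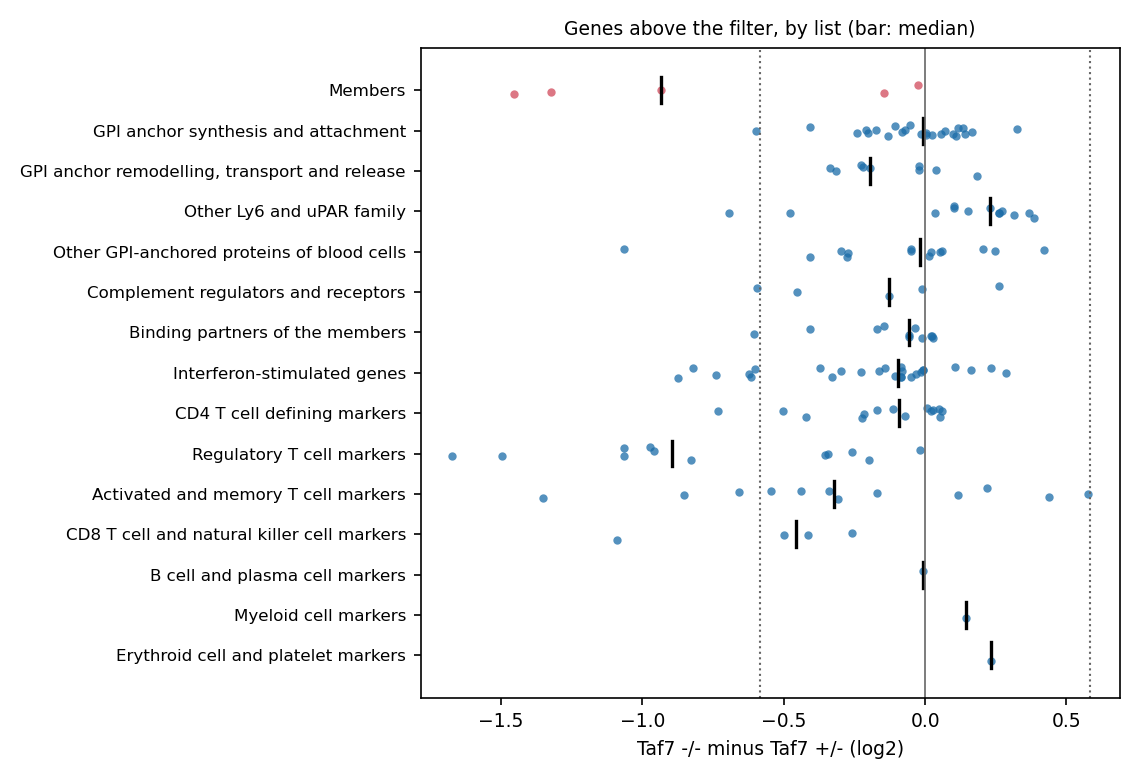
Differences between the arrays (Taf7 -/- minus Taf7 +/-, log2) of the genes above the filter in each list, 1 point per gene, with a bar at the median and dotted lines at 1.5-fold. The 24 anchor synthesis genes centre at -0.01, the 5 members spread from -1.45 to -0.02, and the 12 regulatory T cell markers have a median of -0.89.

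A list drawn up as the rest of the LY6 and urokinase receptor family was mostly weakly detected. Whether each listed gene belongs to that family was not checked here. Of 34 measured genes beyond the members, 13 passed the filter, 2 of them lower and 11 higher, with a median of 0.23. Differences leaned to the higher side at low signal, with a median of 0.14 among genes below the filter and of 0.17 among genes with a mean near that of Ly6d. With the loess trend removed, 3 of the 13 were lower and 10 higher and their median was 0.15. Lynx1, a modulator of nicotinic receptors, was at 8.52 on the Taf7 +/- array and 7.82 on the Taf7 -/- array, a difference of -0.69. It was the only one past 1.5-fold, against 3.17% lower and 0.449% higher over all genes that passed. Plaur, the urokinase receptor, was at 8.55 on the Taf7 +/- array and 8.07 on the Taf7 -/- array, a difference of -0.48. The 3 highest were Lypd2 at 0.39, Gpihbp1, the capillary binding protein of lipoprotein lipase, at 0.37, and Lypd5 at 0.31, all with heterozygote signals between 7.70 and 7.90. Gpihbp1, Slurp1 and Lypd3 passed the filter through the Taf7 -/- array alone, where they were higher. Of the close relatives of Ly6c in the gene cluster, Ly6g, Ly6i, Ly6f, Ly6m and Ly6a2 were below the filter, with differences of 0.09, 0.09, 0.32, -0.04 and -0.21.

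In a list drawn up as other GPI-anchored proteins of blood cells, 14 genes passed the filter, 7 with lower and 7 with higher values, and 1 was past 1.5-fold. That one was Izumo1r, folate receptor 4, a protein of regulatory and anergic T cells, at 11.90 on the Taf7 +/- array and 10.84 on the Taf7 -/- array, a difference of -1.06. Nt5e, the ectoenzyme CD73 that makes adenosine, was at 10.29 and 9.88, a difference of -0.41, and Rtn4rl1 was at -0.30. Rtn4r, the Nogo receptor, was the highest at 0.42, followed by Efna2 at 0.25 and Efna4 at 0.20. Efna2 passed the filter through the Taf7 -/- array alone. The median of the 14 was -0.02, against -0.05 over all genes that passed, of which 3.17% were at least 1.5-fold lower. Lag3, at 0.01, and Treml2, at -0.05, are among the 14 but are not GPI-anchored. Whether each of the others is a blood cell protein was not checked here.

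Complement regulators and receptors were mostly below the filter, with 5 of 20 measured genes above it. Cr1l, which encodes Crry, the main membrane complement regulator of mouse cells, was at 9.99 on the Taf7 +/- array and 9.40 on the Taf7 -/- array, a difference of -0.59 that was 1.51-fold, and it came within 1.5-fold under every rescaling. Cd46 was at 8.54 on the Taf7 +/- array and 8.09 on the Taf7 -/- array, a difference of -0.45. C1qbp was at -0.13, Itgb2 at -0.01 with a sign that turned under rescaling, and Cfp, properdin, at 0.26. The differences of the membrane regulators were, in order, Cd55 at -1.45, Cr1l at -0.59, Cd55b at -0.54, Cd46 at -0.45, Cd59a at -0.07 and Cd59b at 0.27, with Cd55b, Cd59a and Cd59b on signals below the filter.

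In a list drawn up as partners that bind or signal with the members, 11 genes passed the filter. Of these 8 had lower and 3 higher values, 1 of them past 1.5-fold on the lower side, with a median of -0.06. All genes that passed had a median of -0.05, 3.17% of them were at least 1.5-fold lower and most were lower by some amount. The median of the list turned to 0.02 with the loess trend removed and 0.03 after quantile normalization, both with 4 lower and 7 higher. Itgam, below the filter, was at -0.79. Itgb3, an integrin chain that binds Thy1, was at 11.48 on the Taf7 +/- array and 10.87 on the Taf7 -/- array, a difference of -0.61, and within 1.5-fold under every rescaling. Nt5e, also in the list before, was at -0.41. Cd2, a receptor for the anchored ligand CD48, which is not a member, was at -0.17. Adgre5, the CD97 receptor that binds CD55, was at -0.15. The kinase Fyn, which associates with Thy1 inside the membrane, was at 0.03, as was Itgav, and Cd247 was at 0.02.

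Interferon-stimulated genes were listed because Ly6e, Ly6c and Bst2 respond to interferon. Of 26 above the filter, 22 were lower and 4 higher, 6 were past 1.5-fold on the lower side and none on the higher, with a median of -0.10. Over all genes that passed, the median was -0.05, 3.17% were at least 1.5-fold lower and most were lower by some amount. Ifit3 was at -0.88, Ifit2 at -0.82 and Oasl2 at -0.74, and Oas2, Irf7 and Ifi35 were at 0.29, 0.23 and 0.16. The anchored antiviral protein Bst2 was at 9.53 on the Taf7 +/- array and 9.47 on the Taf7 -/- array, a difference of -0.05 whose sign turned under rescaling. Ly6e was at -0.15, and the 2 shared Ly6c clusters were at -1.05 and -0.92. The part of interferon in the member values was not tested. The split became 18 lower and 8 higher after centring or removal of the loess trend and 15 lower and 11 higher after quantile normalization, with medians of -0.05, -0.05 and -0.04. The number lower by at least 1.5-fold was 3 after centring and 4 after either other rescaling.

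Marker lists of T cells and of other cells were read beside the members. Over all genes that passed, the median was -0.05, 3.17% were at least 1.5-fold lower and most were lower by some amount. The 14 measured CD4 T cell markers all passed the filter; 8 were lower and 6 higher, 1 was lower by 1.5-fold, and the median was -0.09. Trat1 was at -0.73, Cd3d at -0.50 and Cd28 at -0.42, while Lef1 was at 0.06, Cd3g at 0.05 and Lat at 0.05. The log2 of their summed signal was 16.70 on the Taf7 +/- array and 16.61 on the Taf7 -/- array. Of the 14 regulatory T cell markers 12 passed the filter and all 12 were lower, 7 by at least 1.5-fold, with a median of -0.89; Gpr83, at -0.02, turned sign under rescaling. Over all 14 the median was -0.59, with Itgae and Klrg1, both below the filter, on the higher side. Nrp1 was at -1.67 and passed the filter through the Taf7 +/- array alone, with 8.75 there and 7.08 on the other array, Foxp3, the defining factor, was at -1.06, and Ctla4 had log2 signals of 9.65 and 8.16 in the order heterozygote, knockout, whereas Ikzf4 was at -0.20 and Tnfrsf18 at -0.26. The log2 of the summed signal of that list was 14.26 on the Taf7 +/- array and 13.56 on the Taf7 -/- array. The part of regulatory T cells in the lower Cd55, Lypd6b, Thy1 and Ly6c values was not tested.

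Of 19 activated and memory markers measured, 12 passed the filter, 8 lower and 4 higher, with 3 lower by at least 1.5-fold and a median of -0.32. Over all genes that passed, 3.17% were lower by at least 1.5-fold and the median was -0.05. Cd44 was at -1.35, Eomes at -0.85 and Icos at -0.66, and at the other end Tbx21 was at 0.58, Cd69 at 0.44 and Ccl5 at 0.22. Tbx21 passed the filter through the Taf7 -/- array alone, with 7.45 on the Taf7 +/- array and 8.02 on the Taf7 -/- array. Under quantile normalization Icos came within 1.5-fold, leaving 2, and after centring Tbx21 was past 1.5-fold on the higher side. CD44 was also a sorting marker. The log2 of the summed signal of the list was 14.10 on the Taf7 +/- array and 14.05 on the Taf7 -/- array. Each signal rests on its own probes, and the strongest in that sum were Cd69 and Id2, both on the higher side. Of all 12 CD8 T cell and natural killer cell markers measured, 9 had lower and 3 higher values. The median was -0.06, against 0.06 over all 19938 genes. Klrk1 at 0.49 and Gzmb at 0.46, both below the filter, were on the higher side. The 4 that passed the filter were lower, 1 of them by at least 1.5-fold, with Klrd1 at -1.09, Prf1 at -0.50, Nkg7 at -0.41 and Cd8b1 at -0.26. The log2 summed signal of all 12 was 12.05 on the Taf7 +/- array and 11.66 on the Taf7 -/- array. The part of these cells in the member values was not tested.

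Markers of cells outside the T lineage were largely below the filter. Above it were 1 of 14 B cell and plasma cell markers (Cd79b, at -0.01), 1 of 18 myeloid markers (Cd68, at 0.14) and 1 of 7 erythroid and platelet markers (Itga2b, at 0.23). Myeloid cells also carry Ly6C. The log2 of the summed signal of the myeloid list was 11.37 on the Taf7 +/- array and 11.41 on the Taf7 -/- array, with 17 of the 18 markers below the filter. Of the 18 markers 5 had lower and 13 higher values, with a median of 0.13, against 0.14 over all genes below the filter. On the lower side, Itgam was at -0.79 and Fcgr3 at -0.44. The part of myeloid cells in the lower Ly6c values was not tested. The log2 summed signal of the B cell and plasma cell list was 10.69 on the Taf7 +/- array and 10.85 on the Taf7 -/- array. The median of its 14 markers was 0.20. Of these, 13 were below the filter, where the median over all genes was 0.14.

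**Figure D4:**
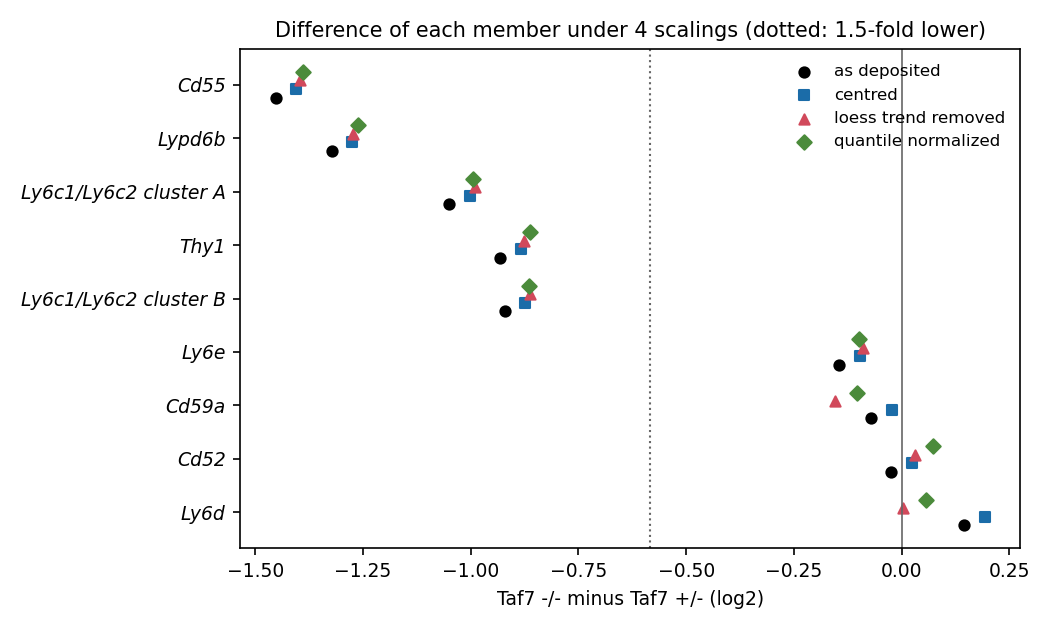
Difference of each member between the arrays (Taf7 -/- minus Taf7 +/-, log2) as deposited and after centring, removal of a loess trend and quantile normalization, 1 marker per scaling, with a dotted line at 1.5-fold lower. Cd55, Lypd6b, Thy1 and both Ly6c clusters stay left of the line under all 4, and Cd52 changes side around 0.

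Rescaling the arrays shifted the members by little. Across the settings tried, Cd55 ranged from -1.45 to -1.39, Lypd6b from -1.32 to -1.26 and Thy1 from -0.93 to -0.86. Cluster 10429568 of the Ly6c genes ranged from -1.05 to -0.99 and cluster 10429573 from -0.92 to -0.86. Ly6e ranged from -0.15 to -0.09, Cd59a from -0.15 to -0.02, Ly6d from 0.00 to 0.19 and Cd52 from -0.02 to 0.07. Each of the 7 members had 1 cluster, so a second set of probes was not at hand for any of them.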

How the data were processed

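RNA of 1 Taf7 +/- and 1 Taf7 -/- sample was measured on 1 array each. The authors deposited log2 signals per gene, made with RMA in Affymetrix Expression Console version 1.1 from the core gene set, per the submitters' processing notes and design text. An exon array is named there, but the probe identifiers match the annotation of a mouse gene-level array. The sources used here give no genome build. RMA estimates signals relative to the other arrays processed, so small shared offsets remain.

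Of 35556 rows, 21789 named 1 gene, 1621 several and 12146 none. Identifiers of 21698 of the single-gene rows were found in RefSeq GRCm38.p6, used for names and gene order. A gene with several clusters was represented by that of highest mean. Differences are knockout minus heterozygote without further scaling. Genes passed the filter if their mean reached the 50th percentile over all rows (7.71). Named are all members, Taf7, up to 3 genes at each end of each of the 14 lists, the 3 genes nearest to Cd55 and Lypd6b over the arrays, and close paralogs; Gpaa1, Pigt, Pigs, Pigu and other list genes beyond these ends were chosen after their values were seen. The members and lists were chosen with earlier results of these data known. Several list genes had no single-gene cluster and were left out. Promoter sequences are from RefSeq. The pipeline was tested on simulated data. Python 3.11.15, pandas 2.3.3, numpy 2.4.6, statsmodels 0.14.6 and matplotlib 3.10.9 were used.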

Additional observations from a re-analysis of the deposited data

How the results depend on the processing

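No paired analysis was possible because there is a single array for either genotype, which also means that none could be left out. The 7 alternatives were centring, removal of a loess trend (span 0.3), averaging of clusters, quantile normalization, and the filter dropped, lowered to the 25th percentile or raised to the 75th. The median of the members that passed the filter, -0.93, became -0.15 with no filter, which admits Ly6d and Cd59a, -0.54 at the 25th percentile, which admits Ly6d, and -0.15 at the 75th, which drops Cd55 and Lypd6b. At the 75th percentile 1 member was lower by 1.5-fold, as were 105 genes, with 16 higher. Genes higher by 1.5-fold numbered 71 after centring and 91 with no filter, against 47. Of 539 values of single genes and clusters under the alternatives, 537 moved by less than the robust SD found among genes with a similar mean, and Pigp and Pgap1 with clusters averaged did not. Filters cannot move such values, centring moves all of them by the same 0.05, and averaging moves only genes with several clusters. The count of 537 therefore says little beyond the loess and quantile settings. With 1 array per genotype, their number limits the precision.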

Other observations

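Genes that lie beside the members in RefSeq order were read as a description. In the LY6 gene cluster from Psca to Gpihbp1, 22 of 45 genes had a cluster of their own and 8 of these passed the filter. Of the 8, 3 were lower and 5 higher, with Lynx1 at -0.69 the only one past 1.5-fold, Them6 at -0.05 and Ly6e at -0.15. Over all genes that passed, 3.17% were at least 1.5-fold lower and 0.449% at least 1.5-fold higher. Slurp1 and Gpihbp1, both on the higher side, passed through the Taf7 -/- array alone. The shared Ly6c1 and Ly6c2 clusters, which lie in the same stretch, are not among the 22. On 1 side of Cd55, the chemokine receptor Cxcr4 was higher in the knockout, at 11.14 on the Taf7 +/- array and 11.75 on the Taf7 -/- array (difference 0.61). The measured genes between Cxcr4 and Cd55 were Thsd7b and Cd55b, both below the filter. Beside Lypd6b, Orc4 was at -0.01, Epc2 at -0.21 and Mmadhc, which handles vitamin B12, at -0.39. Beside Thy1, Usp2 was at -0.08, Rnf26 at -0.10 and Oaf at 0.31. Beside Cd52, which itself was at -0.02, Ubxn11 was at 9.18 on the Taf7 +/- array and 8.58 on the Taf7 -/- array, a difference of -0.61. The other neighbours of Cd52 were Cep85 at -0.10, Dhdds at -0.08, Sh3bgrl3 at 0.00, Crybg2 at 0.02 and Lin28a at 0.14. Beside Cd59a, Hipk3 was at -0.40, Fbxo3 at -0.14 and Cd59b, below the filter, at 0.27. The 3 measured genes on each side were looked at, and those named are mainly the ones above the filter. Genes without a cluster of their own were passed over and distances were not considered, so a gene named as beside a member need not adjoin it. None of the differences has a replicate.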
